A study of Drosophila melanogaster with 12 samples.

Results

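Axon guidance and neural adhesion genes were followed in RNA from heads of 1-day-old adult Drosophila. The set was chosen by gene symbol from ligands, receptors and adhesion molecules of the nervous system. All 43 listed symbols were found with a summed count of at least 10 over the 12 libraries, out of 12433 genes that passed this filter and 17730 genes in the table. By role they were 7 ligands, 17 receptors, 4 receptor tyrosine phosphatases, 13 adhesion molecules and 2 proteins that act inside the cell or in receptor transport.

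The 4 groups had 3 biological replicates each, every one a pool of heads of both sexes. The mTET2-wt flies expressed unchanged mammalian TET2, the mTET2-R43G flies TET2 with an arginine-to-glycine change, and the mTET2-R1261C flies TET2 with an arginine-to-cysteine change in the catalytic domain. Control flies had the w1118 background without a transgene (dTet-Gal4>w1118). The paper reports the same landing site, in a separate fly line, for all transgenes. Effects of the transgene, of its insertion and of line background therefore cannot be told apart in comparisons with control. All groups, control included, carried the dTet-Gal4 driver, in which the promoter of the fly Tet gene directs the yeast activator Gal4 to the cells that express Tet, so a transgene was made only in those cells while RNA came from the whole head. TET proteins are dioxygenases that oxidize methylated cytosine.

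Growing axons find their targets by reading secreted and membrane-bound cues with receptors on the growth cone. Slit, bound by Robo receptors, and the semaphorins, bound by plexins, mostly repel axons. Netrins attract axons through Frazzled and repel them through Unc-5. Adhesion molecules such as the Dscams, fasciclins and cadherins then sort neurites, space branches and match synaptic partners, and many of them remain expressed in the adult brain.

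Between 15894383 and 19434046 read pairs were counted per library, and the 43 genes held between 0.781% and 1.01% of them. Of 8 neuronal marker genes, 8 were detected in these heads, with a summed level between 5212 and 7531 CPM (counts scaled to a common library size by the TMM method, which corrects for library composition). Of 8 glial markers 7 passed the filter, and the astrocyte marker alrm was at 0 in all libraries. Whether read pairs of alrm could be assigned was not examined. The replicate 3 library of mTET2-wt stood apart by its digestive enzyme genes, which summed to 1713 CPM there and to between 14.4 and 173 CPM in the other libraries. The p-values below come from edgeR's quasi-likelihood test on all genes that passed the filter, adjusted by the Benjamini-Hochberg method. In RNA from whole heads, fewer cells of a type and less RNA per cell cannot be told apart.

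The genes were well measured. The median level of the 43 genes was 155 CPM, against 13.6 CPM for all genes tested, and their median biological coefficient of variation was 9.76%, against 13.5% for all genes. The counts covered whole gene bodies with introns, and for the median member exons made up 18.3% of the span. Gene spans reached from 3807 bp for trn to 145447 bp for Lar, with a median of 35132 bp. In 11 of the genes part of the span is shared with another gene on the same strand, where read pairs were not assigned, and this part exceeded 5% in Mical (5.58%) and in Lar (85.9%, shared with CG46244).

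Levels of different genes are compared here in CPM per kb of the gene span that could be counted. On this scale Fas1, the adhesion molecule Fasciclin 1, was highest with 91.3 CPM per kb over the 12 libraries. The repulsive semaphorin receptor PlexA followed with 35.1 CPM per kb, the membrane-bound ligand Ephrin with 33.2 and its receptor Eph with 27.4. NetA, a netrin, was lowest with 0.230 CPM per kb, which put 397-fold between the ends of the range. Reads of exons and introns cannot be told apart in these counts, so the order depends on the length used. Per kb of exons the same counts put Fas1 at 272 CPM and NetA at 3.44, again the ends of the range but 79.3-fold apart.

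The netrins NetA and NetB are neighbours on the X chromosome (dmel_r6.28), with NetA at chrX:14604012-14653928 and NetB at chrX:14686038-14749376, both on the minus strand. NetB had 3.27 CPM per kb of countable span against 0.230 for NetA, and 25.1 against 3.44 CPM per kb of exons. Of the Slit receptors, robo1 had 10.4 CPM per kb of countable span, robo3 2.32 and robo2 1.12, while per kb of exons robo3 had 13.1, robo1 12.9 and robo2 7.03. The Ryk-type receptors drl, Drl-2 and dnt had 3.30, 1.54 and 0.691 CPM per kb of countable span, and 19.4, 6.23 and 6.43 CPM per kb of exons. The 4 Dscam genes reached from 7.18 CPM per kb of countable span for Dscam2 through 4.88 for Dscam3 and 3.59 for Dscam4 to 2.97 for Dscam1. Per kb of exons Dscam4 (19.9), Dscam3 (18.2) and Dscam2 (17.1) were in the other order, above Dscam1 (7.18).

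**Figure D1:**
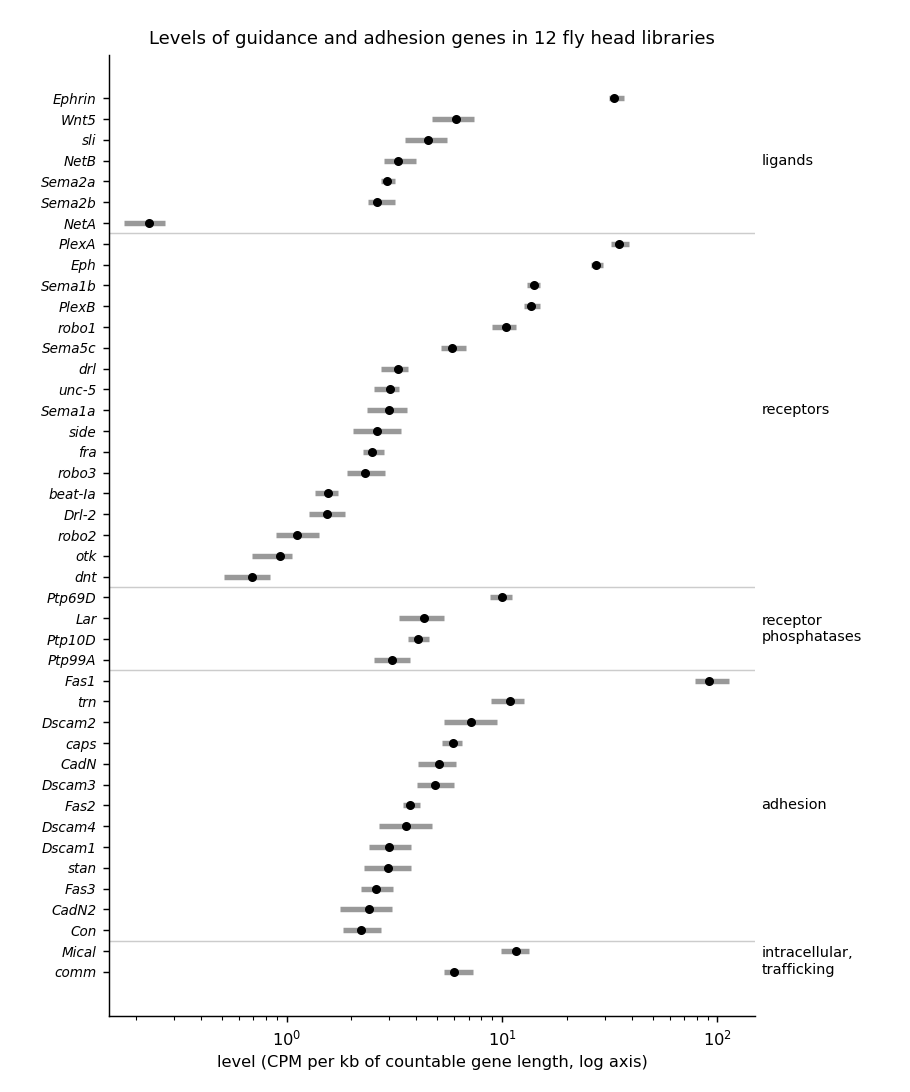
Level of each of the 43 genes in CPM per kb of countable gene length (log axis), grouped by role and ordered within each role. Points are means over the 12 libraries and grey bars reach from the lowest to the highest library; Fas1 lies at the top of the range with 91.3 CPM per kb and NetA at the bottom with 0.230.

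These levels stayed within a narrow range over the 4 groups. The highest of the 4 group means was at most 1.37 times the lowest, in Dscam2, and the median of this ratio was 1.18. No member was a differentially expressed gene (DEG, here log2 fold change at or beyond 1 in either direction, with an adjusted p-value no higher than 0.05) in any comparison, with edgeR or with DESeq2. Among all genes tested, DEGs made up 1.20% for mTET2-wt versus control, 1.34% for mTET2-R43G versus control and 0.748% for mTET2-R1261C versus control. They made up 0.0804% for mTET2-R43G versus mTET2-wt, 0.145% for mTET2-R1261C versus mTET2-wt, 0.0724% for mTET2-R1261C versus mTET2-R43G and 1.34% for all mTET2 groups versus control. The 95% intervals of the log2 fold changes stayed within 1 of 0 for all 43 genes in all 7 comparisons, with the widest reach at 0.72, so a 2-fold change lay outside every interval.

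In mTET2-R43G heads, 5 of the 43 genes (11.6%) were higher than in control at an adjusted p-value of 0.05 or less, and 0 were lower. They were Dscam1, robo2, Fas3, stan and Lar, with log2 fold changes between 0.30 and 0.44. Over all genes tested 4.33% were called at this threshold, 2.29% as higher. At an unadjusted p-value under 0.05, 19 members (44.2%) were higher and 1 was lower, against 11.3% higher and 11.7% lower among all genes (23.0% in both directions). The fold change was positive in 36 of the 43 genes, with a median log2 fold change of 0.18, where 48.0% of all genes were positive with a median of -0.01.

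Dscam1 encodes an immunoglobulin-type receptor with a very large number of splice forms by which sister branches of a neuron recognize and avoid each other. It lies at chr2R:7317924-7381899, and exons cover 41.4% of this span. Its level was 199, 237 and 242 CPM in mTET2-R43G libraries, against 179, 165 and 154 CPM in control. The lowest mTET2-R43G library was above the highest control library. The log2 fold change was 0.44 (SE 0.0983, n = 3 each), with an edgeR adjusted p-value of 0.0308.

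The receptor robo2 (chr2L:1380086-1420453) binds Slit and sets the lateral position of axon tracts in the embryo. It had 44.7, 49.2 and 55.0 CPM in mTET2-R43G libraries and 39.4, 36.1 and 34.9 CPM in control, without overlap. The log2 fold change was 0.43 (SE 0.0988, n = 3 each; edgeR adjusted p = 0.0348).

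Fas3 (chr2L:18320102-18393441), a homophilic adhesion molecule of some axons and of septate junctions, had 188, 211 and 224 CPM in mTET2-R43G libraries, against 177, 159 and 170 CPM in control. The groups again did not overlap. The log2 fold change was 0.30 (SE 0.0726, n = 3 each; edgeR adjusted p = 0.0422).

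The seven-pass cadherin stan, also called flamingo, acts in dendrite growth and in planar polarity, and lies at chr2R:10673345-10721138. It had 151, 181 and 171 CPM in mTET2-R43G libraries, against 136, 120 and 115 CPM in control. All mTET2-R43G libraries were higher, with a log2 fold change of 0.44 (SE 0.109, n = 3 each; edgeR adjusted p = 0.0461).

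Lar (chr2L:19586623-19732069) is a receptor tyrosine phosphatase for photoreceptor targeting and synapse growth. It had 96.1, 110 and 106 CPM in mTET2-R43G libraries and 83.4, 80.4 and 74.8 CPM in control, so the groups were separate. The log2 fold change was 0.39 (SE 0.0976, n = 3 each; edgeR adjusted p = 0.0480). This level comes from the part of the gene that CG46244 does not share.

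**Figure D2:**
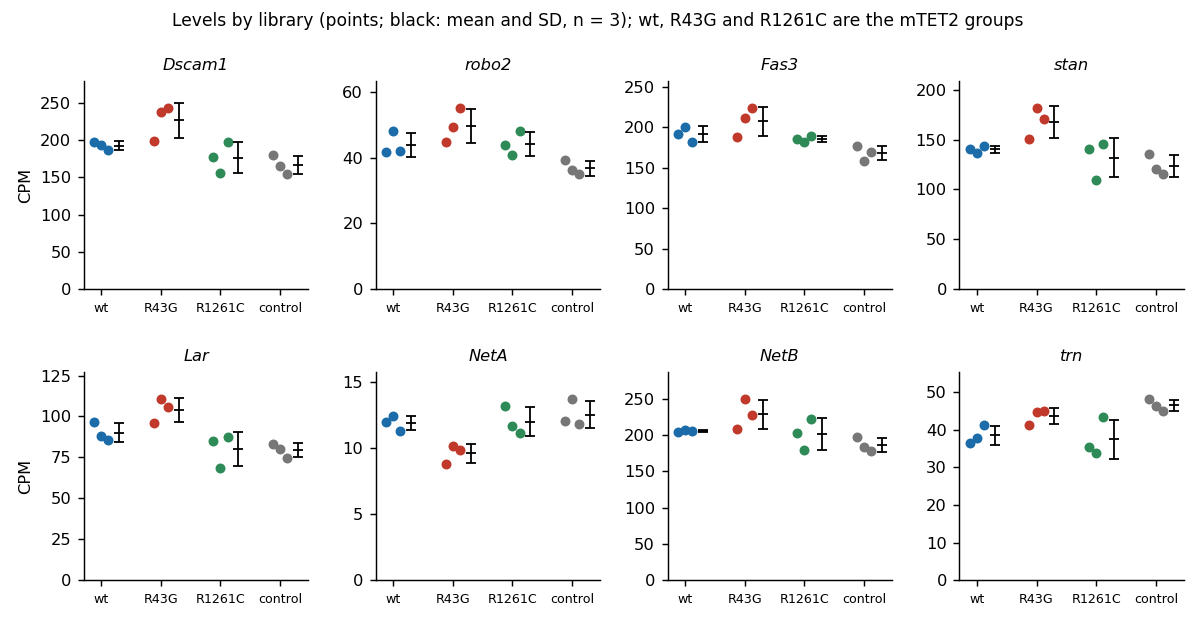
CPM of 8 genes in each library, with mTET2-wt, mTET2-R43G, mTET2-R1261C and control from left to right; coloured points are libraries and black marks the mean with its SD (n = 3). In Dscam1, robo2, Fas3, stan and Lar every mTET2-R43G library lies above every control library, while NetA is lower in mTET2-R43G and trn is lower in all mTET2 groups than in control.

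These 5 calls were close to the threshold. Without the mTET2-R43G replicate 2 or 3 library, or without the control replicate 2 or 3 library, 0 members were called. The same held where only the 6 libraries of this comparison were fitted. DESeq2 called 13 members, and it called 9.11% of all genes, against 4.33% with edgeR. The fold changes of the 5 genes stayed positive in all these fits.

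NetA moved against most of the set, and NetA, NetB and the genes in the next 2 paragraphs are described although none of them passed the adjusted threshold with edgeR under the main settings. NetA was called with edgeR's own filter on low counts (filterByExpr, adjusted p = 0.0483), and NetB, sli, Wnt5, Dscam2, Dscam4, Con and CadN2 were among the 13 genes that DESeq2 called. NetA and NetB are both secreted by midline cells in the embryo. NetA had 8.77, 10.1 and 9.85 CPM in mTET2-R43G libraries, against 12.0, 13.7 and 11.8 CPM in control, so that the groups did not overlap. Its log2 fold change was -0.38 (SE 0.1003, n = 3 each; edgeR adjusted p = 0.0551). Its neighbour NetB had 208, 249 and 227 CPM in mTET2-R43G libraries, against 197, 183 and 178 CPM in control. Here too the groups were separate, in the other direction, with a log2 fold change of 0.29 (SE 0.0858, n = 3 each; edgeR adjusted p = 0.0751). The netrin receptors fra and unc-5 had log2 fold changes of 0.16 and -0.03.

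Among the other ligands, the Robo ligand sli had a log2 fold change of 0.37 and Wnt5, the ligand of drl, of 0.37, while the secreted semaphorins Sema2b (0.17) and Sema2a (0.07) and Ephrin (0.03) were closer to 0. Their edgeR adjusted p-values reached from 0.0846 for sli to 0.851 for Ephrin. The semaphorin receptors PlexA (0.06) and PlexB (-0.02) stayed near 0. The direction of PlexB turned to positive with RLE size factors. Of the membrane-bound semaphorins, Sema1a had a log2 fold change of 0.27, Sema5c of 0.11 and Sema1b of -0.07. Mical, an enzyme that oxidizes actin downstream of PlexA, had 0.21, and comm, which keeps Robo from the surface of crossing axons, had 0.03.

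The adhesion molecules had the highest median log2 fold change of these role groups, 0.30 over 13 genes. It was 0.17 for the 7 ligands, 0.17 for the 4 receptor phosphatases and 0.15 for the 17 receptors. These medians take no account of gene length, with which the fold change rose, as described below. Dscam2, which spaces neighbouring columns in the fly visual system, had 252, 272 and 292 CPM in mTET2-R43G libraries, against 222, 190 and 185 CPM in control. The groups did not overlap, and the log2 fold change of 0.45 was the highest in the set (SE 0.122, n = 3 each; edgeR adjusted p = 0.0615). Dscam4 had a log2 fold change of 0.40 and Dscam3 of 0.15. The neural cadherins CadN and CadN2, which lie side by side on arm 2L, had 0.26 and 0.40, and the leucine-rich repeat protein Con had 0.32. Fas2, which bundles axons, had 0.06, and caps, which helps photoreceptors to select their layer, had 0.11.

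**Figure D3:**
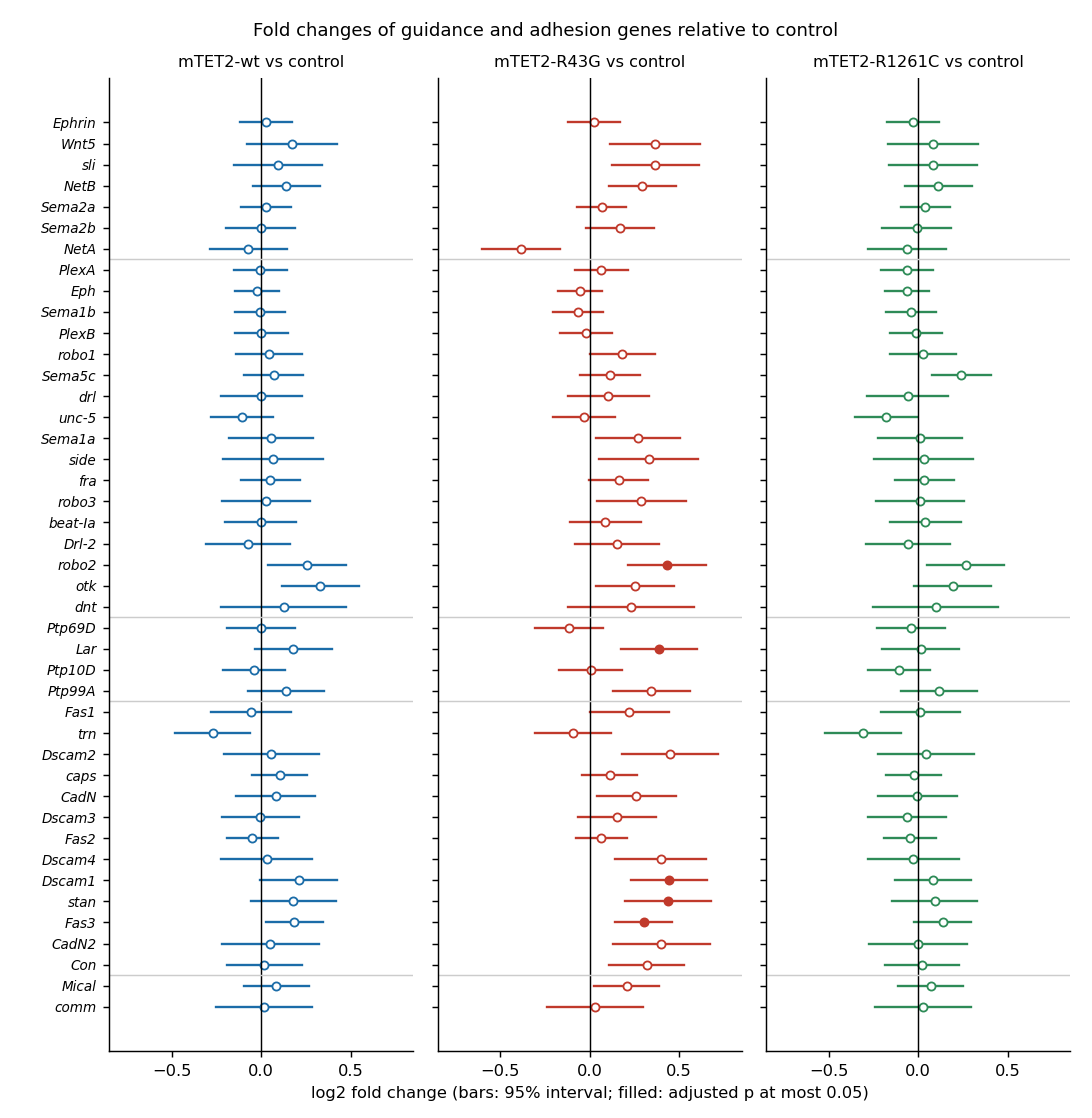
Log2 fold change of each of the 43 genes versus control, with a panel each for mTET2-wt (left), mTET2-R43G (middle) and mTET2-R1261C (right) and with genes in the same order as in the plot of levels (ligands, receptors, receptor phosphatases, adhesion molecules, Mical and comm, from top to bottom). Bars are 95% intervals and filled points have an edgeR adjusted p-value of at most 0.05, which holds for 5 genes, all for mTET2-R43G; no bar reaches 1 or -1.

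The upward shift in mTET2-R43G went with gene length, also among genes outside the set. Of the 26 members with a gene span of 30 kb or more, 96.2% had a positive log2 fold change, with a median of 0.29. The other genes of this length, 594 genes at or above the lowest mean level of a member (11.5 CPM), had a median of 0.24, and 93.4% of them were positive. At an unadjusted p-value under 0.05, 65.4% of the long members and 59.9% of the other long genes were higher, and 19.2% and 15% passed the adjusted threshold. The 11 members of 10 to 30 kb had a median of 0.11, as did 1086 other genes of that length. Other genes under 2 kb, a class without a member, had a median of -0.17 (1501 genes).

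All 5 called genes had spans longer than 30 kb, although the part of Lar that could be counted was 20.5 kb. With the members classed by this countable part, 25 were long, with a median of 0.29, and 4 of them (16%) were called. Over the 43 genes the Spearman correlation of fold change and length was 0.54, given as a description because the points share their libraries. The exceptions at both ends were NetA, which is 49.9 kb long and had the lowest fold change, and Wnt5, a gene of 4.00 kb without introns with a log2 fold change of 0.37. A further fit, chosen after the data were seen, used an offset that removes each library's trend of level on gene length. The trend was taken from members and other genes together, so genes that follow it lose their shift by construction. In this fit 20 of the 43 genes were positive and their median was -0.01. The 5 calls were lost, with edgeR adjusted p-values from 0.0729 to 0.882. The log2 fold changes of these genes were 0.18 for Dscam1, 0.22 for robo2, 0.03 for Fas3, 0.21 for stan and 0.04 for Lar. The offset used full gene spans, so Lar was treated as a gene of 145447 bp although 20.5 kb of it could be counted. In that fit 2 of the 43 members were called, both as lower, where 3.25% of all genes were called. NetA had a log2 fold change of -0.62 (SE 0.106, adjusted p = 0.0116) and Ptp10D, a receptor phosphatase of midline repulsion and tracheal tubes, of -0.24 (SE 0.0544, adjusted p = 0.0373). Without the offset Ptp10D had 205, 234 and 253 CPM in mTET2-R43G libraries, against 243, 224 and 223 CPM in control, which overlap.

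**Figure D4:**
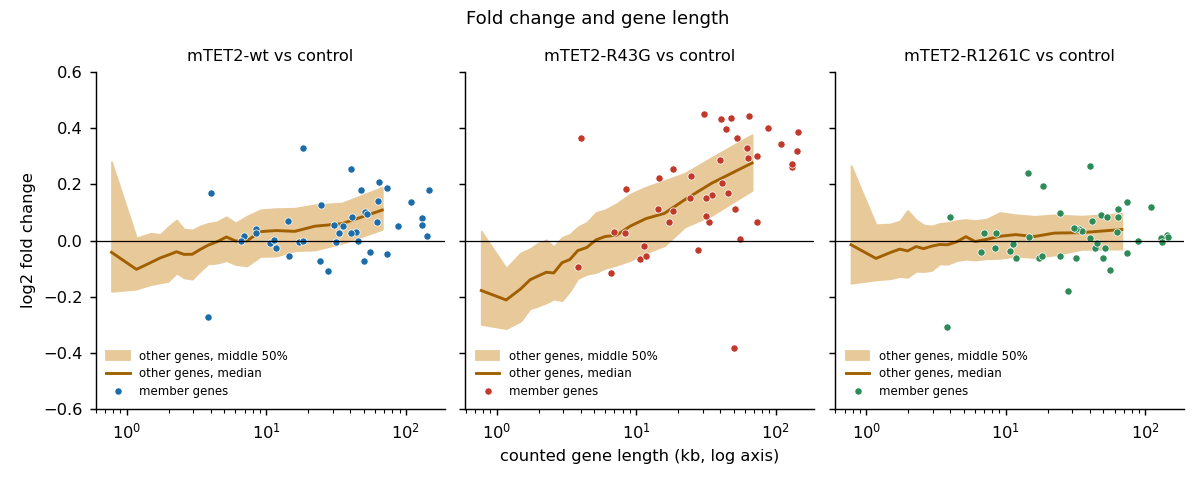
Log2 fold change versus control against counted gene length (kb, log axis), with mTET2-wt at the left, mTET2-R43G in the middle and mTET2-R1261C at the right. The brown line and band are the median and the middle 50% of other genes at or above the lowest member level, in bins of length. Coloured points are the 43 genes. In mTET2-R43G the band climbs with length and most points follow it, with NetA below it at -0.38 and Wnt5 above it at 0.37. The line also rises with length in mTET2-wt and, less, in mTET2-R1261C.

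The shift was not the same in all libraries. The median deviation of the 43 genes from their 12-library mean log2 CPM was 0.014, 0.188 and 0.155 in mTET2-R43G replicates 1 to 3, against 0.024, -0.042 and -0.143 in control replicates 1 to 3. The replicate 1 libraries of both groups therefore overlapped, and the distance lay in replicates 2 and 3. Other genes of 30 kb or more had deviations of 0.057, 0.220 and 0.176 in mTET2-R43G, against 0.016, -0.111 and -0.176 in control, which is the same order within each group. The mTET2-wt libraries were near 0, from -0.029 to -0.003, and the mTET2-R1261C libraries reached from -0.162 to 0.045.

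Cell type markers also differed between the libraries, and not all in the order of the member levels. The 8 neuronal markers summed to 6518, 7531 and 7172 CPM in mTET2-R43G replicates 1 to 3 and to 6912, 6303 and 5585 CPM in control replicates 1 to 3. Within both groups this is the order of the member levels. It was also the same in mTET2-R1261C, but not in mTET2-wt. Of the 8 neuronal markers 7 had a positive log2 fold change in mTET2-R43G, with a median of 0.18, and 0 passed the adjusted threshold. The 8 photoreceptor markers summed to 30978 to 35851 CPM in mTET2-R43G and to 26126 to 33607 CPM in control. All 8 had a positive log2 fold change, with a median of 0.11 and 0 past the adjusted threshold. Their highest sum was in mTET2-R43G replicate 1, the library of that group with the lowest member levels. The 8 muscle markers summed to 16602 to 20186 CPM in mTET2-R43G and to 13478 to 19428 CPM in control. Of these, 3 had a positive and 5 a negative log2 fold change, with a median of -0.07. The glial markers summed to 2023 to 2258 CPM in mTET2-R43G, below the 2409 to 3010 CPM of control. Of the 7 tested, 2 had a positive and 5 a negative log2 fold change, with a median of -0.15. Of these, 1 passed the adjusted threshold as lower. The glial sums were also below control in mTET2-wt, with 2193 to 2309 CPM. There the median log2 fold change of the guidance genes was 0.03. Of 8 haemocyte markers 4 had a positive and 4 a negative log2 fold change in mTET2-R43G, with a median of -0.28, and 1 was called as lower. Of 8 epidermis markers 7 had a negative log2 fold change, with a median of -0.43 over the list, and the 1 positive gene was called as higher. Over all genes 4.33% were called. The 8 fat body markers summed to 23600 to 46796 CPM in mTET2-R43G and to 32751 to 74264 CPM in control. Of these, 2 had a positive and 6 a negative log2 fold change, with a median of -0.39. The highest sum was in control replicate 3, the control library with the lowest member levels. The part of these differences in the results for the guidance genes was not tested.

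**Figure D5:**
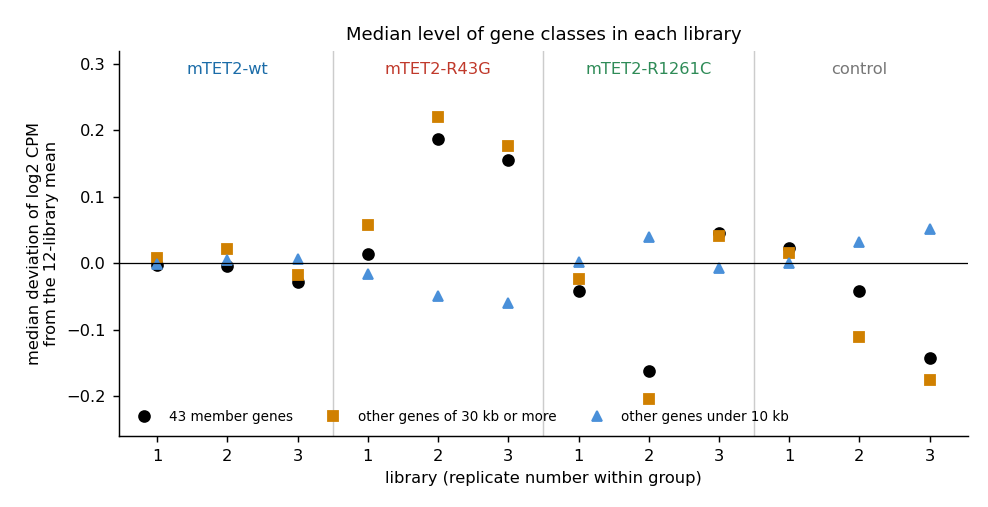
Median deviation of log2 CPM from the 12-library mean in each library, for the 43 genes (black circles), for 594 other genes of 30 kb or more (orange squares) and for other genes under 10 kb (blue triangles), all at or above the lowest member level. The 43 genes follow the other long genes in all groups, with mTET2-R43G replicates 2 and 3 highest and mTET2-R1261C replicate 2 and control replicate 3 lowest.

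In mTET2-wt heads 0 members passed the adjusted threshold relative to control, where 2.24% of all genes did. At an unadjusted p-value under 0.05 there were 4 members (9.30%), against 14.7% of all genes. The median log2 fold change of the members was 0.03, and it was 0.06 for the 26 long members. The 594 other long genes had a median of 0.09 and the 1501 other genes under 2 kb one of -0.07. The fold change thus rose with length here too, over a smaller range than in mTET2-R43G. The lowest p-value belonged to otk, which encodes the plexin partner Off-track. It had 18.7, 19.5 and 18.3 CPM in mTET2-wt libraries, against 15.3, 16.95 and 12.6 CPM in control. The groups did not overlap, and the log2 fold change was 0.33 (SE 0.0987, n = 3 each; edgeR adjusted p = 0.126). The next were trn with -0.27 (edgeR adjusted p = 0.200) and robo2 with 0.26 (edgeR adjusted p = 0.239).

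In mTET2-R1261C heads 0 members passed the adjusted threshold relative to control either, where 1.49% of all genes did. Again 4 members (9.30%) had an unadjusted p-value under 0.05, against 11.8% of all genes. The median log2 fold change of the members was 0.01, with 0.03 for the 26 long members. It was 0.04 for the other long genes and -0.04 for the other genes under 2 kb. The leucine-rich repeat protein Tartan is encoded by trn (chr3L:13114271-13118077), a short and mostly exonic gene. It had 35.3, 33.8 and 43.5 CPM in mTET2-R1261C libraries, against 48.1, 46.4 and 45.0 CPM in control. The log2 fold change was -0.31 (SE 0.0964, n = 3 each; edgeR adjusted p = 0.185). The groups were separate, but replicate 3 of mTET2-R1261C lay close to control. Without that library trn was the only member called (edgeR adjusted p = 0.0300).

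Sema5c, a transmembrane semaphorin, had 92.3, 97.6 and 85.6 CPM in mTET2-R1261C libraries, against 79.1, 74.6 and 79.6 CPM in control. The groups did not overlap, with a log2 fold change of 0.24 (SE 0.0757, n = 3 each; edgeR adjusted p = 0.188). For robo2 the value was 0.27 (edgeR adjusted p = 0.286).

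With the mean of the 3 mTET2 groups set against control, 0 members passed the adjusted threshold, where 3.96% of all genes did, and 10 (23.3%) had an unadjusted p-value under 0.05, against 18.8% of all genes. The libraries of all mTET2 groups were separate from control in 3 members (6.98%), robo2 and Fas3 as higher and trn as lower, and this share was near the 5.77% of all genes. The receptor robo2 had 41.7, 48.2 and 41.9 CPM in mTET2-wt and 43.9, 40.8 and 48.0 CPM in mTET2-R1261C, beside the mTET2-R43G and control values above. Its log2 fold change over the mTET2 groups was 0.32 (SE 0.0820; edgeR adjusted p = 0.0556).

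Fas3 had 192, 201 and 181 CPM in mTET2-wt and 185, 182 and 189 CPM in mTET2-R1261C. Its log2 fold change over the mTET2 groups was 0.21 (SE 0.0600; edgeR adjusted p = 0.0818). For trn, mTET2-wt libraries had 36.4, 37.8 and 41.4 CPM and mTET2-R43G libraries 41.2, 44.7 and 44.9 CPM, the last just under the lowest control library. Its log2 fold change was -0.22 (SE 0.0775; edgeR adjusted p = 0.142), and that of otk was 0.26 (SE 0.0819; edgeR adjusted p = 0.113), or 0.15 without control replicate 3. For robo2 the call was gained with DESeq2, with another filter on low counts and with a robust fit, and for Fas3 with DESeq2. Of the 20 members whose libraries were separate between mTET2-R43G and control (46.5%, against 26.6% of all genes), 18 were higher and NetA and trn were lower.

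Whether the mutants differed from unchanged TET2 was tested directly. For mTET2-R43G versus mTET2-wt 0 members passed the adjusted threshold (0.145% of all genes did). At an unadjusted p-value under 0.05, 9 members were higher and 1, NetA, was lower (10 members, 23.3%), against 4.69% of all genes as higher and 5.17% as lower (9.86% in both directions). The median log2 fold change was 0.14, and it was 0.18 for the 26 long members beside 0.15 for the other long genes. With the gene length offset the median of the 43 genes was 0.002, and 22 instead of 37 were positive. The 10 members at an unadjusted p-value under 0.05 became 20 without mTET2-R43G replicate 1, 4 without mTET2-R43G replicate 2 and 5 without mTET2-R43G replicate 3. Leaving out mTET2-wt replicate 3 gave 5, and leaving out replicate 1 of that group gave 6. Dscam2 had 252, 272 and 292 CPM in mTET2-R43G and 215, 219 and 187 CPM in mTET2-wt. These libraries did not overlap, and the log2 fold change was 0.39 (SE 0.122, n = 3 each; edgeR adjusted p = 0.413). Con (0.30) and Dscam4 (0.37) came next with the same adjusted p-value.

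For mTET2-R1261C versus mTET2-wt 0 members passed the adjusted threshold (0.193% of all genes did), and 1 member, Sema5c, had an unadjusted p-value under 0.05, against 6.63% of all genes. Sema5c had 92.3, 97.6 and 85.6 CPM in mTET2-R1261C and 77.7, 82.3 and 84.5 CPM in mTET2-wt. The log2 fold change was 0.17 (SE 0.0756, n = 3 each; edgeR adjusted p = 0.717), and the highest mTET2-wt library lay just below the lowest mTET2-R1261C library. The other low p-values were those of caps with -0.13 (edgeR adjusted p = 0.829) and Lar with -0.17 (edgeR adjusted p = 0.864), or -0.06 without mTET2-R1261C replicate 2.

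For mTET2-R1261C versus mTET2-R43G 0 members passed the adjusted threshold (0.0965% of all genes did). At an unadjusted p-value under 0.05, 16 members were lower in mTET2-R1261C and 1, NetA, was higher, against 6.39% of all genes as lower and 6.58% as higher. The median log2 fold change of the members was -0.16, and it was -0.22 for the 26 long members beside -0.20 for the other long genes. With the gene length offset the median of the 43 genes was 0.01, and 23 instead of 5 were positive. The 17 members at an unadjusted p-value under 0.05 became 27 without mTET2-R43G replicate 1, and 8 without mTET2-R43G replicate 2 or without mTET2-R1261C replicate 2. Lar had 85.1, 68.4 and 87.6 CPM in mTET2-R1261C and 96.1, 110 and 106 CPM in mTET2-R43G, without overlap. This gave a log2 fold change of -0.37 (SE 0.0977, n = 3 each; edgeR adjusted p = 0.302). Dscam1 (-0.36) and Dscam4 (-0.42) had the same adjusted p-value. These 3 genes were called with DESeq2, where 0.917% of all genes were. For mTET2-wt and for mTET2-R1261C versus control, and for each mutant versus mTET2-wt, DESeq2 called 0 members as edgeR did.

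Relatives of the set were examined as 4 lists. The beat and side genes encode further partners of the Beaten path and Sidestep kind, the dpr and DIP genes encode immunoglobulin proteins that pair neurons with their synaptic partners, and the other lists held further adhesion proteins and effectors of guidance signals such as kinases, proteases and actin regulators. For mTET2-R43G versus control, 2 of 19 tested beat and side genes (10.5%) were called, both higher. Of 32 dpr and DIP genes 5 were higher and 1 was lower (18.8%), of 43 other adhesion genes 3 were higher and 1 was lower (9.30%), and of 36 effectors 2 were higher (5.56%). In the 4 lists together 14 genes (10.8%) were called, against 4.33% of all genes. Of the 594 other genes of 30 kb or more described above, which can include genes of these lists, 15% were called. The median log2 fold changes of the lists were 0.16, 0.19, 0.17 and 0.05. These stand beside 0.18 for the 43 genes, -0.01 for all genes and 0.24 for the other long genes. The part of gene length in the results for the lists was not tested.

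The largest change among these calls was that of dpr8. It had 216, 281 and 266 CPM in mTET2-R43G libraries, against 159, 134 and 140 CPM in control, with a log2 fold change of 0.81 (edgeR adjusted p = 0.0103). The groups did not overlap. The other calls were dpr21, dpr2, dpr11, dpr3, beat-IIb, side-VI, the teneurin Ten-m, the neuroligin Nlg1, the kinase Pak and the metalloprotease kuz as higher, beside the 3 genes that follow.

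DIP-epsilon, bdl and tok passed the adjusted threshold in each of the mTET2 groups versus control. These comparisons share the control libraries and the landing site of the transgenes. DIP-epsilon had 85.4, 92.0 and 86.4 CPM in mTET2-wt, 85.1, 90.7 and 98.6 CPM in mTET2-R43G and 83.4, 90.1 and 81.7 CPM in mTET2-R1261C, against 132, 127 and 118 CPM in control. It was lower in each mTET2 library than in each control library, with log2 fold changes of -0.52, -0.46 and -0.56 in that order of groups (edgeR adjusted p = 0.00415, 0.00685 and 0.00238).

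Borderless, the product of bdl, is an immunoglobulin protein of photoreceptor axons. It had 374 to 487 CPM in the 9 mTET2 libraries, against 589 to 605 CPM in control, and the log2 fold changes were -0.47, -0.53 and -0.45. Tolkin, the product of tok, is a secreted metalloprotease of motor axon guidance. It had 213 to 256 CPM in the 9 mTET2 libraries, against 175 to 184 CPM in control, with log2 fold changes of 0.36, 0.46 and 0.49. In mTET2-wt and in mTET2-R1261C these 3 were the only calls in the 4 lists (2.31% of the genes), against 2.24% and 1.49% of all genes. Over all mTET2 groups versus control the calls were DIP-epsilon, bdl and dlp as lower and tok, beat-IIb, Nlg1 and capu as higher, which is 5.38% of the lists, against 3.96% of all genes.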

How the data were processed

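Strand-specific, ribosomal RNA-depleted paired-end libraries were analysed from the raw counts that the authors deposited, whole numbers of read pairs per gene without normalization. The authors aligned reads with hisat2 2.1.0 to FlyBase dmel_r6.28 and counted pairs on the reverse strand over whole genes, introns included, with featureCounts (1.6.0 per the file header, 2.0.1 in the submitters' processing notes). Gene spans equalled those of the reference annotation for 43 of 43 members.

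Genes with a summed count under 10 were left out. Counts were fitted with edgeR 4.0.16 in R 4.3.3 (TMM factors 0.959 to 1.05, all 12 libraries, 1 mean per group, common dispersion 0.0315), and p-values were adjusted over 12433 genes in each comparison. The filter and the thresholds are those of the study, which used DESeq2; its design formula is not given in the sources used here. CPM are TMM-scaled and standard errors are those of log2 fold changes. Figures were drawn with matplotlib 3.10.9. The script was tested on simulated data. The alternatives were DESeq2 1.42.0, RLE size factors, 2 other filters on low counts, the replicate number as a block, a fit of only the libraries compared, removal of 117 ribosomal RNA genes (2.19% to 7.31% of counts), a robust fit, each library left out and, after the data were seen, a gene length offset.

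The members and the lists were chosen with earlier results of these data known. Full statistics are given in each comparison for members at an adjusted p-value of at most 0.05, filled up to the 3 lowest p-values, and for other lists for the 3 lowest in all mTET2 versus control. Other genes named with values, NetA, NetB, Dscam2 and Ptp10D for mTET2-R43G, dpr8 and the further calls in the lists among them, were chosen after their values were seen. Of the lists, hbs and 18w could not be matched to the table and were not analysed here.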

Additional observations from a re-analysis of the deposited data

How the results depend on the processing

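Of 360 alternative fits of the 23 member values given with full statistics, 0 turned the direction, 312 stayed on the same side of the threshold, 37 lost a call and 11 gained one. For mTET2-R43G versus control the main fit called 5 members, DESeq2 13 and the gene length offset 2. Of all genes the main fit called 4.33%, DESeq2 9.11% and the gene length offset 3.25%. The fit of only the libraries compared called 0 members, and leaving out 1 library gave 0 to 5. With the replicate number as a block 0 members were called and 223 instead of 538 genes overall. The labels do not say whether equal numbers mark a shared batch. Same-numbered libraries of different groups had correlations of deviations from -0.38 to 0.29 (other pairs -0.31 to 0.38). Of 18 such pairs 4 were over 0.1, and 4 of 12 libraries correlated best with their own number. With 3 libraries per group these values cannot settle whether the numbers pair the libraries. For mTET2-R1261C versus control, leaving out 1 library gave 0 to 1 called members. For mTET2-R1261C versus mTET2-R43G, DESeq2 called 3 members and 0.917% of all genes. For all mTET2 versus control, DESeq2 called 2 members and 6.47% of all genes. There edgeR's filterByExpr called 1 member and the robust fit 1, and leaving out 1 library gave 0 to 2. For that comparison the fit of only the libraries compared is the main fit. DEG counts among members were 0 in all fits. The cause of these differences was not tested, except that fits with fewer libraries or with a block have fewer residual degrees of freedom. The members had summed counts from 2421 to 278193, and with 3 libraries per group 1 library could decide a call. The RLE size factors turned the sign of 1 member for mTET2-R43G versus control, of 6 for mTET2-wt and of 3 for mTET2-R1261C, all with fold changes near 0. The gene length offset turned the sign of 16 members for mTET2-R43G versus control, of 11 for mTET2-wt and of 6 for mTET2-R1261C, of 15 for mTET2-R43G and 16 for mTET2-R1261C versus mTET2-wt, of 18 for mTET2-R1261C versus mTET2-R43G and of 12 for all mTET2 versus control. Without 1 library, the members at an unadjusted p-value under 0.05 numbered 14 to 26 for mTET2-R43G versus control (20 with all libraries), and the median log2 fold change stayed between 0.14 and 0.23.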
